A study of Mus musculus with 6 samples.

Results

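The mitochondrial ribosomal protein genes of mouse fetal ovaries were described here after exposure of the dams to acetaminophen (APAP) and ibuprofen (IBU). Members were all protein-coding genes with a symbol that begins with Mrpl (large subunit) or Mrps (small subunit) and a number, and they made up 78 of the 48709 genes in the deposited count table, 49 Mrpl and 29 Mrps. Subunit values follow the symbol, which does not match the protein's place for Mrps18a, Mrps30 and Mrps36, as described below. Wild type CD1 dams received by gavage either 30 mg/kg/day APAP together with 15 mg/kg/day IBU, the drugs alternating every 3 h over 4 gavages per day, or ethanol as the diluent, from 10.5 to 13.5 days post coitum (dpc). Ovaries were taken at 13.5 dpc, so both groups shared strain, stage and gavage schedule, and RNA came from 3 control pools and 3 APAP+IBU pools of gonads, each holding embryos of more than 1 dam. A pool averages its embryos and cell types, and in bulk RNA fewer cells of a type and less RNA per cell cannot be told apart.

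The mitoribosome is the ribosome of the mitochondrial matrix. It makes only the few respiratory chain proteins that are encoded in mitochondrial DNA, on ribosomal RNAs that come from the same DNA, whereas every one of its proteins is encoded in the nucleus, made in the cytosol and imported. Some of these proteins descend from bacterial ribosomal proteins, and others were added during the evolution of mitochondria. Fetal germ cells and the surrounding somatic cells both contain mitochondria, and the level of these mRNAs in each cell type was not measured.

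Total counts ran from 37811968 to 48954631 per library, and mitoribosomal mRNAs took 0.292% to 0.399% of them. Levels are CPM, the counts of a gene scaled to a common library size, with TMM normalisation. Exposed and control libraries were compared by the quasi-likelihood test of edgeR, with p-values adjusted by the Benjamini-Hochberg method over the 20167 genes that passed its filter on low counts, and an adjusted p under 0.05 counted as a call. Germ cell markers (5 genes, summed level 843 to 1053 CPM in controls and 945 to 1202 CPM in APAP+IBU ovaries) and pre-granulosa markers (4 genes, 259 to 427 and 345 to 372 CPM) were present in all libraries, which the ovary label calls for. Foxl2, 1 of the pre-granulosa markers, was low, at 8.16, 2.38 and 0.944 CPM in controls and 2.21, 4.37 and 5.21 CPM after exposure. Liver markers (8 genes) summed to 237, 512 and 1838 CPM in controls and 168, 355 and 2965 CPM in APAP+IBU ovaries, highest in replicate 3 of both groups. All 7 spermatid markers had a lower fitted level in APAP+IBU ovaries, with sums of 34.1 to 132 CPM in controls and 1.57 to 5.28 CPM after exposure. Macrophage markers (3 genes) summed to 45.4, 50.4 and 41.0 CPM in controls and 32.6, 31.5 and 49.2 CPM after exposure, and erythroid markers (5 genes) to 5340, 12489 and 8487 CPM and 2293, 4103 and 7673 CPM. Testis markers (4 genes, 3 of them tested) summed to 14.4, 16.9 and 6.79 CPM in controls and 8.24, 8.08 and 7.21 CPM after exposure, high in control replicates 1 and 2 as the mitoribosomal genes were. The summed germ cell markers ran nearly the other way, lowest in control replicates 2 and 1 and then in APAP+IBU replicate 3. Singly they were split, with fitted log2 fold changes above 0 for Sycp3 (0.63), Dazl (0.35) and Ddx4 (0.10). Those of Pou5f1 (-0.49) and Dppa4 (-0.47) were under 0. These values are uncorrected. After the transcript length and GC correction described below, Sycp3 (0.29) stayed above 0. Dazl (-0.09), Ddx4 (-0.12), Pou5f1 (-0.30) and Dppa4 (-0.39) were then under 0. With coding length in the correction, Dazl was at 0.04 and Ddx4 at -0.20. The part of cell composition in the values below was not tested. Replicate 3 of the controls stood apart from the other controls for these genes, so results are given for all 6 libraries and for replicates 1 and 2 of each group.

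Of the 78 genes, 69 had a promoter window in RefSeq (GRCm38.p6, 250 bases before to 50 after the transcription start). The letters CCGGAAG, the core bound by ETS factors such as GABP, a known regulator of nuclear genes for mitochondrial proteins, were found on either strand of any window in 26 of the 69 (37.7%), beside 12.9% of the windows of 17492 protein-coding genes and 9.93% of those of all 27025 genes. The letters AAGATGG of the YY1 motif were in 13 (18.8%, beside 7.18% of protein-coding genes), GCATGCG of the NRF1 motif in 8 (11.6%, beside 4.96%) and TATAAA of the TATA box in 5 (7.25%, beside 14.8%). The CCAAT box was in 27 (39.1%, beside 42.3%). The ETS and YY1 letters can overlap by 3 letters, which they did in 0 of the 69 genes. Upstream stretches of 120 bases that end 1 base before the RefSeq start are shown for 2 Mrpl and 2 Mrps genes among those with large changes. The windows of Mrpl52, Mrps26 and Mrps21 hold the ETS letters, and that of Mrpl12 holds none of the motifs searched. All were read 5′ to 3′ on the gene's strand, and capitals mark the letters of the ETS, YY1 or NRF1 motif or their reverse complements.
Mrpl52 (chr14:54426789-54426908, plus strand): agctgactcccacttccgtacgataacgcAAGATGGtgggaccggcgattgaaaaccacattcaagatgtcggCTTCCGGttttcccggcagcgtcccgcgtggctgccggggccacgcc
Mrps26 (chr2:130563637-130563756, plus strand): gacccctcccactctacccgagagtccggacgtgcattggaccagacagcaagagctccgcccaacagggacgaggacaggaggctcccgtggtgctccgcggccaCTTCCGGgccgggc
Mrpl12 (chr11:120484517-120484636, plus strand): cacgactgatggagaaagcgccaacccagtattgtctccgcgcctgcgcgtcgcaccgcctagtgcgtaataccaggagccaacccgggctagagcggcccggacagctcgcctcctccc
Mrps21 (chr3:95871515-95871634, minus strand): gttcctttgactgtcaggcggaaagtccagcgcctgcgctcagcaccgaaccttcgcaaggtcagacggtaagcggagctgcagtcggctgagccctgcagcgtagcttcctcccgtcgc
The stretch of Mrpl52 holds 1 ETS and 1 YY1 match and that of Mrps26 holds 1 ETS match, while those of Mrpl12 and Mrps21 hold none, the ETS letters of the Mrps21 window lying outside the stretch. Over the members tested for expression, the median log2 fold change was -0.26 for the 25 genes with the ETS letters and -0.23 for the 43 without. With and without the YY1 letters it was -0.23 (13 genes) and -0.25 (55), and with and without the NRF1 letters it was -0.10 (8) and -0.25 (60), and no difference was tested. No value here bears on whether a factor binds these promoters.

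Before any comparison, levels were set in order per kilobase of a representative transcript. In control ovaries the 77 tested members had mean levels from 14.6 to 110 CPM with a median of 42.7 CPM, and none of them was near the detection limit. Per kilobase, Mrpl42 (a large subunit protein without a bacterial counterpart) had the highest level of the Mrpl genes, 118 ± 5.11 CPM per kb (SD, n = 3). Its representative transcript has 666 bases, while all its annotated exons together cover 3682 bases. The rank of Mrpl42 therefore holds for this transcript length only, and the SD between pools leaves that uncertainty out. Mrps21, the counterpart of a small bacterial protein of the small subunit, had the highest of the Mrps genes, 117 ± 30.4 CPM per kb (SD, n = 3), so the leaders of both subunits did not differ beyond their spread. The medians were 32.9 CPM per kb for the Mrpl genes and 28.0 CPM per kb for the Mrps genes. Mrps26 was the lowest Mrps gene at 7.14 ± 2.06 CPM per kb (SD, n = 3), over a representative transcript of 4.278 kb that is mostly untranslated. Mrpl53, a stalk protein, stood alone at 0.320 ± 0.152 CPM per kb (SD, n = 3). Its level was 0.341, 0.187 and 0.138 CPM in controls and 0.414, 0.197 and 0.208 CPM after exposure, too low for the 6-library test. Its exons overlap those of other annotated genes on both strands, and the level of Mrpl53 is uncertain for that reason.

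Across all 6 libraries, no mitoribosomal gene was called, but nearly all had a slightly lower fitted level in APAP+IBU ovaries. Of 77 tested members, 75 had a log2 fold change under 0, beside 50.6% of all tested genes. The median was -0.24 for 48 Mrpl genes and -0.26 for 29 Mrps genes, beside -0.005 for all tested genes, so the medians of both subunits were nearly equal. In edgeR's test 0 of 77 members and 0% of all genes were called, and the smallest adjusted p of a member was 0.692. At an unadjusted p under 0.05 there were 2 members, both lower, in a table where 6.22% of genes passed that limit in either direction and 3.21% were lower. The standard error of a member's log2 fold change ran from 0.11 to 0.42 with a median of 0.17. DESeq2 called 192 genes (0.952%) and none of the members.

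The spread behind these errors lay between libraries of 1 group. Summed over the Mrpl genes, mitoribosomal mRNA was 2726, 2474 and 1933 CPM in controls and 1852, 1976 and 2209 CPM in APAP+IBU ovaries. The Mrps genes summed to 1398, 1249 and 975 CPM in controls and 969, 1030 and 1134 CPM in APAP+IBU ovaries. Both sums gave the same picture: control replicates 1 and 2 were highest, control replicate 3 lay among the exposed libraries, and APAP+IBU replicate 3 was the highest of its group. Relative to each gene's own mean, the median member deviated by 0.30, 0.20 and -0.20 log2 units in control replicates 1, 2 and 3 and by -0.23, -0.13 and 0.05 in APAP+IBU replicates 1, 2 and 3. In replicate 3 the exposed library lay above the control one for 63 of 77 members, beside 50.7% of all tested genes. In replicates 1 and 2, both exposed libraries lay below both controls for 71 of 77 members, beside 35.6% of all tested genes.

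**Figure D1:**
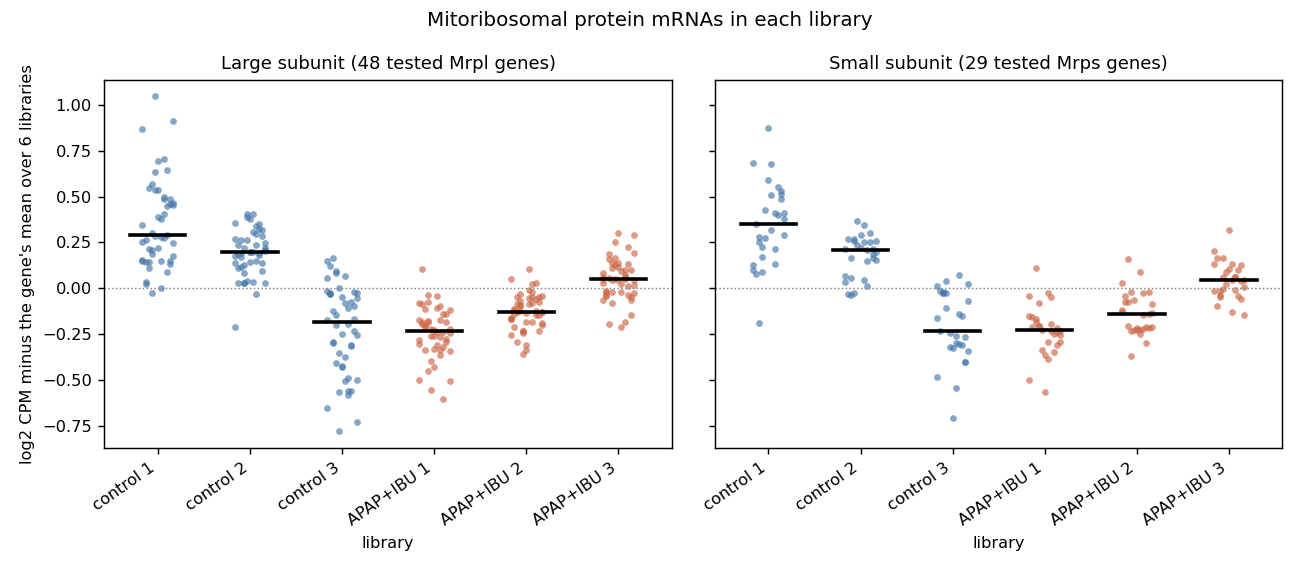
Each point is 1 tested gene in 1 library, given as its log2 CPM minus its mean over 6 libraries, for Mrpl genes (left) and Mrps genes (right), with control libraries in blue and APAP+IBU libraries in orange and a bar at the median. Subunits in the panel titles follow the symbol. Control replicates 1 and 2 lie above 0 at the median, while control replicate 3 lies at the level of APAP+IBU replicates 1 and 2, and APAP+IBU replicate 3 lies slightly above 0.

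With replicates 1 and 2 of each group only, most members were called. These libraries were chosen with the values of the members known, so the calls describe these 4 libraries and are no independent evidence of a direction. Of 78 members, 51 were called by edgeR (adjusted p under 0.05) and all 51 were lower in APAP+IBU ovaries, in a table where 12.9% of genes were called lower and 27.2% in either direction. These were 31 of 49 Mrpl genes and 20 of 29 Mrps genes, with median log2 fold changes of -0.39 and -0.46. The uncalled members included Mrpl44, Mrps5, Mrps22, Mrps30 and Mrpl53 among the genes named below. When control replicate 3 alone was left out, 2 members were called, Mrpl11 and Mrpl48, beside 5.16% of genes in either direction. Leaving out any other single library gave no call.

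Transcript length moved with these values. Mitoribosomal mRNAs are short, with a median representative transcript of 1316 bases and a median coding sequence of 588 bases, beside 2627 and 1368 bases for all tested genes. Genes were set in 5 classes of equal size by transcript length. The other genes of the shortest class deviated by 0.27, 0.19 and -0.14 log2 units in control replicates 1, 2 and 3 and by -0.16, -0.12 and 0.05 in APAP+IBU replicates 1, 2 and 3. Their libraries thus stood in the same order as for the members, and those of the longest class ran the other way, from -0.23 in control replicate 1 to 0.15 in control replicate 3. Among other tested genes the median log2 fold change rose with transcript length from -0.19 in the shortest class to 0.14 in the longest. The members' median was under 0 in every class, at -0.27 (39 genes), -0.19 (15), -0.28 (8), -0.23 (11) and -0.19 (4) from the shortest to the longest class. The longer members therefore lay further below other genes of their length than the shorter members did.

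Each library was then corrected for length and GC content, which shrank the median difference over all members without turning it. The longer members did not follow when transcript length was used. Their medians moved further from 0, to -0.33, -0.36 and -0.39 in length classes 3, 4 and 5. Those of classes 1 and 2, the shortest, moved to -0.06 and -0.08. With transcript length in the correction, 62 of 77 members stayed under 0 (beside 51.8% of all genes), and the medians were -0.09 for both the Mrpl and the Mrps genes. With coding length in its place, 59 of 77 were under 0 (beside 50.3%), with medians of -0.08 for Mrpl and -0.10 for Mrps genes. At an unadjusted p under 0.05 there were 8 members after the first correction, 7 lower and Mrps10 higher, and after the second Mrps10 alone, again higher, where 9.8% and 9.28% of all genes passed, and 0 members were called in either. After the transcript length correction the members' log2 fold change fell with length (Spearman's rho -0.62 over 77 genes, a description across genes of the same libraries). After the coding length correction the rho with coding length was -0.08. In replicates 1 and 2 of each group, 24 of 78 members were called after the transcript length correction, 23 lower and 1 higher, where 6.52% of genes were called lower and 11.9% in either direction. With coding length, 11 were called, 10 lower and 1 higher, where 5.61% were lower and 11.5% were called in either direction. Both corrections shared 9 of these members, which were 9 of 24 and 9 of 11.

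**Figure D2:**
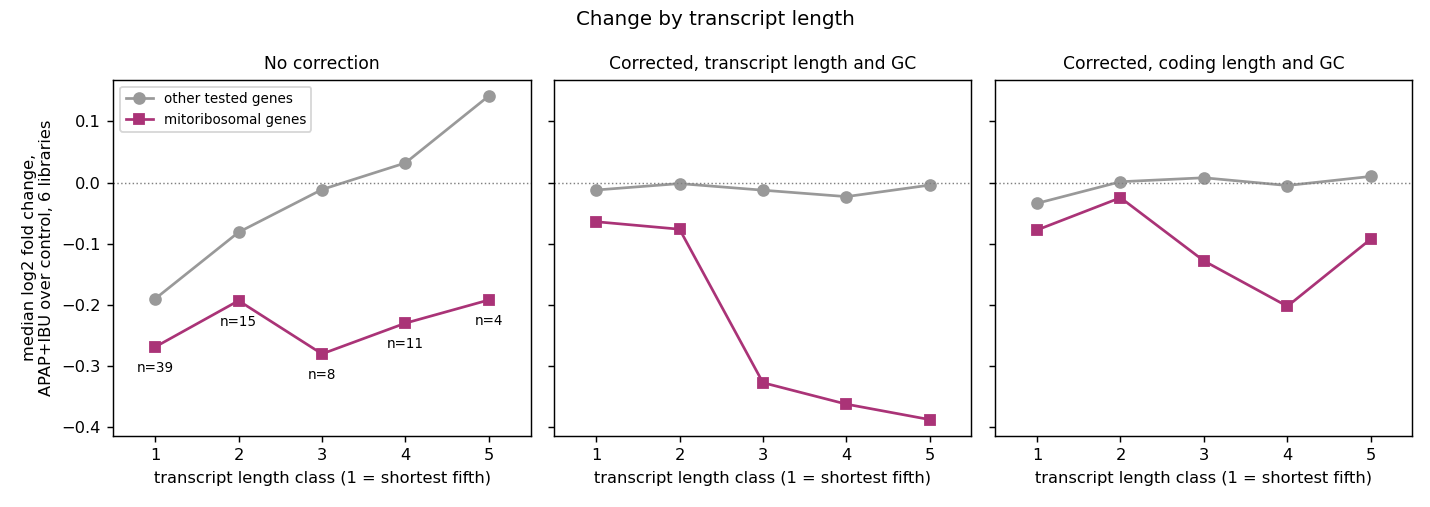
Median log2 fold change (APAP+IBU over control, 6 libraries) of tested mitoribosomal genes (squares) and other tested genes (circles) in 5 classes of transcript length, without correction (left) and after correction for GC content with transcript length (middle) or coding length (right). Other genes rise from -0.19 to 0.14 without correction and lie near 0 after it, while the members lie below them in every class of all 3 panels.

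The genes with the largest fitted changes came from both subunits. Without control replicate 1, the library with the highest summed levels, the changes of Mrpl52, Mrpl54 and Mrpl2 were much smaller, at -0.10, -0.11 and -0.11. Mrpl52, a large subunit protein without a bacterial counterpart (ENSMUSG00000010406, chromosome 14, 54426909 to 54429756), whose promoter is shown above, had 51.7, 32.8 and 14.6 CPM in controls and 17, 19.5 and 29.8 CPM in APAP+IBU ovaries. Control replicate 1 was the highest library and control replicate 3 the lowest of all, so the groups overlapped. This gave a log2 fold change of -0.58 ± 0.42 (SE, adjusted p = 0.70 in edgeR's test), and in replicates 1 and 2 it was -1.19 ± 0.21 (adjusted p = 0.00959). In those libraries it stayed called after both corrections, at -0.64 and -0.63.

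Mrps21 (ENSMUSG00000054312, chromosome 3, 95862634 to 95871519) had 68.9, 61.4 and 40.3 CPM in controls and 37.0, 40.7 and 49.9 CPM after exposure. Again control replicate 3 lay within the exposed range. The log2 fold change was -0.42 ± 0.22 (SE, adjusted p = 0.692 in edgeR's test) and -0.73 ± 0.11 in replicates 1 and 2 (adjusted p = 0.00675). Over 6 libraries it was -0.14 and -0.21 after the transcript length and coding length corrections. In replicates 1 and 2 Mrps21 was not called by edgeR with transcript length (-0.25, adjusted p = 0.115) but was with coding length (-0.35, adjusted p = 0.0442). Mrps12, which lies at the decoding centre of the small subunit (ENSMUSG00000045948, chromosome 7, 28739641 to 28741820), had 35.1, 23.5 and 11.7 CPM in controls and 13.0, 16.5 and 23.9 CPM after exposure. Control replicate 3 was the lowest library, and APAP+IBU replicate 3 exceeded control replicate 2. The log2 fold change was -0.40 ± 0.39 (SE, adjusted p = 0.752 in edgeR's test), it was -0.97 ± 0.21 (adjusted p = 0.0173) in replicates 1 and 2, and there it was not called after either correction, at -0.44 and -0.42.

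Mrps26 (ENSMUSG00000037740, chromosome 2, 130563742 to 130568695), a small subunit protein without a bacterial counterpart, had 38.4, 32.2 and 21.1 CPM in controls and 20.5, 21.3 and 28.0 CPM in APAP+IBU ovaries. The pattern over libraries was that of Mrps21. The fitted log2 fold change was -0.39 ± 0.24 (SE, adjusted p = 0.697 in edgeR's test), and in replicates 1 and 2 it was -0.74 ± 0.13 (adjusted p = 0.00917). Mrps24, which contributes to the entry of mRNA, gave -0.36 ± 0.25 (SE, adjusted p = 0.699), and Mrpl2, near the peptidyl transferase centre, gave -0.41 ± 0.30 (SE, adjusted p = 0.70). Mrpl48 had 72.5, 64.1 and 46.9 CPM in controls and 43.0, 47.6 and 47.5 CPM after exposure. The control and exposed values of Mrpl48 overlapped only through control replicate 3. Its log2 fold change was -0.41 ± 0.17 (SE, unadjusted p = 0.0442 and adjusted p = 0.692 in edgeR's test). Exons of Mrpl12, Mrpl48 and Mrps26 overlap an exon of a gene on the other strand, as do those of 28 members in all, and the strand setting of the counting is not given in the sources used here. The 45 members without any overlapping exon had a median log2 fold change of -0.25, and so did the 32 tested members with one.

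**Figure D3:**
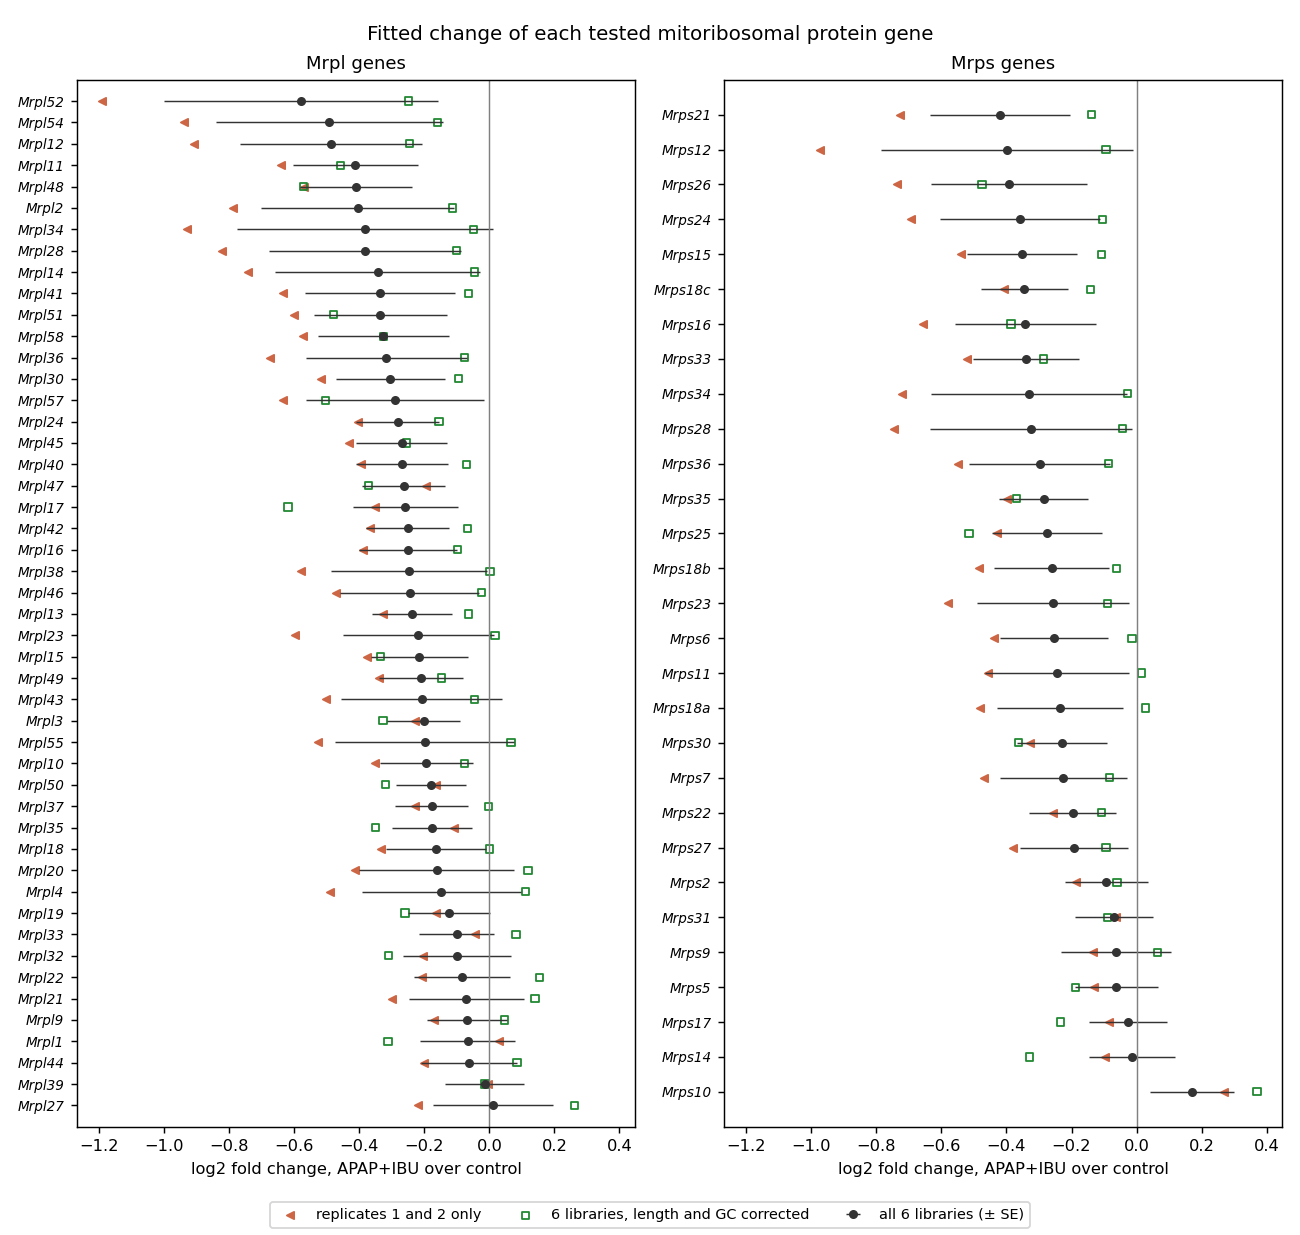
Log2 fold change (APAP+IBU over control) of each of the 48 tested Mrpl genes (left) and 29 tested Mrps genes (right), ordered by the 6-library estimate (circles with SE bars), with the estimate from replicates 1 and 2 (triangles) and the 6-library estimate after the transcript length and GC correction (open squares). All circles but those of Mrpl27 and Mrps10 lie under 0, most triangles lie further left, and most squares lie nearer 0.

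The stalk recruits the translation factors to the ribosome, and its 4 tested members had a median log2 fold change of -0.45, the lowest among the structural groups described here. Mrpl12, the repeated stalk protein (ENSMUSG00000039640, chromosome 11, 120484613 to 120489065), had 84.7, 68.0 and 39.0 CPM in controls and 38.8, 41.4 and 56.6 CPM after exposure. Control replicate 3 was level with APAP+IBU replicate 1. The log2 fold change was -0.49 ± 0.28 (SE, adjusted p = 0.692 in edgeR's test), and -0.91 ± 0.12 in replicates 1 and 2 (adjusted p = 0.00632). Mrpl11, at the stalk base, had 71.0, 63.2 and 43.0 CPM in controls and 41.8, 43.0 and 48.3 CPM in APAP+IBU ovaries, which gave -0.41 ± 0.19 (SE, adjusted p = 0.692). Mrpl54, also of the stalk, gave -0.49 ± 0.35 (SE, adjusted p = 0.70), and Mrpl10, which anchors the repeated stalk protein, gave -0.19 ± 0.14 (SE, adjusted p = 0.70). In replicates 1 and 2 all 4 were called lower, where 12.9% of all genes were, and after the coding length correction Mrpl11 (-0.37) and Mrpl12 (-0.44) still were, where 5.61% were. Over 6 libraries the stalk's median was -0.20 after the transcript length correction and -0.18 after the coding length correction. Whether Mrpl10 changed less than its partners was not tested.

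Around the exit of the peptide tunnel, 7 members had a median of -0.22 and no called gene over 6 libraries. Mrpl45, which ties the large subunit to the inner membrane, had 71.1, 69.0 and 57.6 CPM in controls and 50.4, 51.9 and 61.7 CPM after exposure. The groups crossed over only at replicate 3. Its log2 fold change was -0.27 ± 0.14 (SE, adjusted p = 0.692 in edgeR's test), and -0.26 and -0.17 after the transcript length and coding length corrections. In replicates 1 and 2 Mrpl45 was called by edgeR at -0.43 (adjusted p = 0.0150). There it stayed called after the transcript length correction (-0.42, adjusted p = 0.0258) but not with coding length (-0.29, adjusted p = 0.0684). Mrpl23, at the rim of the exit, gave -0.22 ± 0.23 (SE, adjusted p = 0.764), and 0.02 after either correction. A pseudogene, Mrpl23-ps1, holds 226 to 360 counts per library, and reads shared with it could have been split in the counting. Mrpl44, a relative of ribonuclease III, had 33.3 ± 4.09 CPM in controls and 31.9 ± 2.77 CPM after exposure (SD, n = 3 each), a log2 fold change of -0.06 ± 0.15 (SE, adjusted p = 0.887), and was at 0.09 and 0.05 after the corrections. The median of the exit group was -0.01 after the transcript length correction and 0.02 after the coding length correction. Its members were spread to both sides of these medians, as Mrpl45 and Mrpl44 show.

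Elsewhere in the large subunit, Mrpl38 of the central protuberance had 77.5, 61.2 and 39.6 CPM in controls and 44.6, 47.0 and 58.7 CPM after exposure. Control replicate 3 was again the lowest library. Its log2 fold change was -0.25 ± 0.24 (SE, adjusted p = 0.751 in edgeR's test), and 0.002 and -0.04 after the 2 corrections. Mrpl58, a peptidyl-tRNA hydrolase built into the ribosome that can release stalled chains, gave -0.33 ± 0.20 (SE, adjusted p = 0.698). Mrps30 carries a small subunit name although its protein sits in the large subunit. It had 31.1, 31.5 and 29.9 CPM in controls and 24.8, 24.4 and 29.7 CPM in APAP+IBU ovaries, without overlap between groups but nearly level at replicate 3. The log2 fold change of Mrps30 was -0.23 ± 0.14 (SE, adjusted p = 0.693 in edgeR's test), and it was not nearer 0 after correction, at -0.36 and -0.33. In replicates 1 and 2 it was not called without correction (-0.33, adjusted p = 0.0638) and was called with coding length in the correction (-0.56, adjusted p = 0.0193).

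In the small subunit, Mrps5, which lines the path of the mRNA, was nearly level at 59.9 ± 7.42 CPM in controls and 57.4 ± 0.796 CPM after exposure (SD, n = 3 each), a log2 fold change of -0.06 ± 0.13 (SE, adjusted p = 0.874 in edgeR's test). Mrps16 had 66.8, 64.1 and 39.8 CPM in controls and 39.3, 42.5 and 52.8 CPM after exposure. Control replicate 3 lay near the bottom of the exposed range. The log2 fold change was -0.34 ± 0.22 (SE, adjusted p = 0.698 in edgeR's test). Mrps22, a protein found only in mitochondrial ribosomes, had 39.6, 34.6 and 32.7 CPM in controls and 29.6, 31.6 and 32.1 CPM after exposure. All exposed libraries of Mrps22 lay below all controls, by little at the closest pair. In the fit this was a log2 fold change of -0.20 ± 0.13 (SE, adjusted p = 0.699). Mrps36, whose protein is now known as a subunit of the 2-oxoglutarate dehydrogenase complex and no longer counted with the ribosome, gave -0.30 ± 0.22 (SE, adjusted p = 0.70).

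The mitoribosome has 3 paralogs in place of 1 bacterial protein of the small subunit. Mrps18a, whose protein is found in the large subunit, had 48.4 ± 11.7 CPM in controls and 41.1 ± 4.41 CPM after exposure (SD, n = 3 each). Mrps18b had 30.4 ± 3.12 and 25.4 ± 4.97 CPM (SD, n = 3 each). Mrps18c had 37.2, 34.8 and 30.8 CPM in controls and 25.8, 27.6 and 27.4 CPM in APAP+IBU ovaries, so each exposed library lay below each control. The log2 fold changes were -0.23 ± 0.19 for Mrps18a, -0.26 ± 0.18 for Mrps18b and -0.35 ± 0.13 for Mrps18c (SE, adjusted p = 0.719, 0.699 and 0.692 in edgeR's test). The unadjusted p of Mrps18c was 0.0331. After the transcript length correction they were 0.03, -0.06 and -0.14, and no difference between the paralogs was tested.

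Groups that did not overlap were no more than a small share of the members. In 12 of 77 tested genes all 3 exposed libraries lay below all 3 controls, beside 5.92% of all tested genes, and among the genes named above these were Mrps18c, Mrps22 and Mrps30. Mrps10 was singled out after its values were seen, since it was the 1 member with all exposed libraries above all controls and the member called higher in the corrected fits to replicates 1 and 2. Mrps10, a counterpart of a bacterial small subunit protein, had 29.4, 32.6 and 32.9 CPM in controls and 36.2, 37.5 and 33.1 CPM after exposure. The replicate 3 libraries were level. Its log2 fold change was 0.17 ± 0.13 (SE, adjusted p = 0.703 in edgeR's test) over 6 libraries, 0.37 and 0.35 after the corrections, and in replicates 1 and 2 it was 0.27 ± 0.11 without correction (adjusted p = 0.113) and 0.57 ± 0.11 with coding length in the correction (adjusted p = 0.0209). Descent was assigned mainly by the number in the symbol, a rule that can misplace single genes. The 47 members given a bacterial counterpart by it had a median log2 fold change of -0.23 with 45 under 0. The 30 tested members not given a counterpart had a median of -0.27 with all 30 under 0.

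Other genes of mitochondrial translation lay on both sides of 0. The lists were not matched for transcript length, and values are uncorrected unless stated. After the transcript length correction of 6 libraries, the median translation factor was Tsfm at -0.06 and the median assembly factor was Mterf4 at -0.03. The median of the other mitoribosomal proteins was then that of Aurkaip1, -0.18. The gap between translation factors and the Mrpl and Mrps genes was thus smaller, and no difference between lists was tested. The 5 mitoribosomal proteins with other names (Dap3, Ptcd3, Chchd1, Aurkaip1 and Gadd45gip1) had a median log2 fold change of -0.26, with 4 under 0 and 0 called. Aurkaip1, of the small subunit, was lowest at -0.44 ± 0.26 (SE, adjusted p = 0.694 in edgeR's test), and Ptcd3, a large RNA-binding protein of the small subunit, was at 0.07 ± 0.15 (SE, adjusted p = 0.881). Of 15 tested translation factors 9 were under 0, with a median of -0.05 and 0 called. Tufm, the elongation factor that brings tRNA, was lowest at -0.38 ± 0.24 (SE, adjusted p = 0.698), then Slirp, a partner of Lrpprc in mRNA stability, at -0.27 ± 0.16 (SE, adjusted p = 0.692). Guf1, a translation GTPase, was highest at 0.44 ± 0.23 (SE, adjusted p = 0.692), then Mtif2, the initiation factor, at 0.17 ± 0.16 (SE, adjusted p = 0.742). Of 27 assembly and rRNA modification factors 16 were under 0, with a median of -0.03, a range from -0.38 in Rbfa to 0.27 in Tfb1m, and 0 called. C1qbp (-0.36) and Mterf3 (0.24) came next on either side. Of 14 genes of mitochondrial transcription and DNA maintenance 7 were under 0, with a median of -0.002 and 0 called. Tfam, which packages mitochondrial DNA, was lowest at -0.19 ± 0.11 (SE, adjusted p = 0.692), before Twnk (-0.14), and the coactivator Ppargc1a was highest at 0.55 ± 0.34 (SE, adjusted p = 0.698), before Gabpa (0.30). In replicates 1 and 2, 4 of the 5 other mitoribosomal proteins were called lower, 3 translation factors lower and 2 higher, 8 assembly factors lower, and 1 gene of transcription and DNA maintenance higher, in a table where 12.9% of all genes were called lower and 27.2% in either direction. After the coding length correction of those libraries the called genes were 3 lower translation factors and none in the other 3 lists, where 11.5% of all genes were called.

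**Figure D4:**
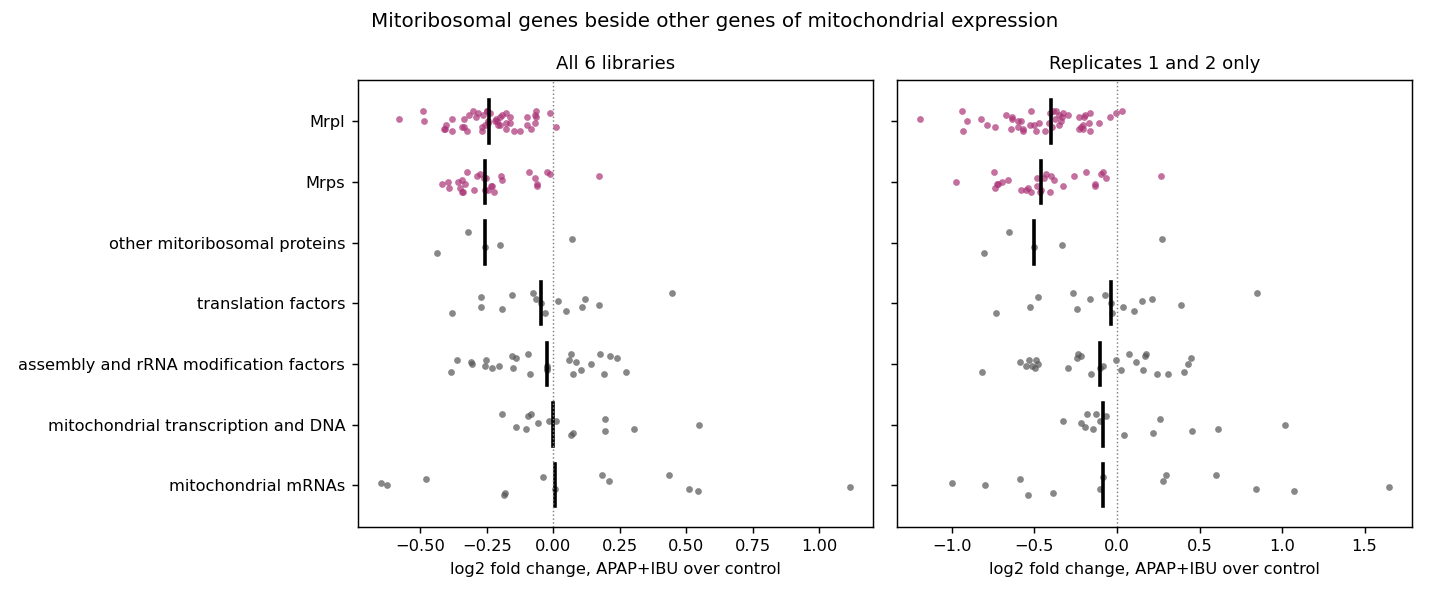
Log2 fold change (APAP+IBU over control) of each tested gene in 7 lists, from all 6 libraries (left) and from replicates 1 and 2 (right), with a bar at the median and mitoribosomal genes in purple. The medians of Mrpl, Mrps and the other mitoribosomal proteins lie at -0.24, -0.26 and -0.26 on the left, while those of the other 4 lists lie between -0.05 and 0.01. All values are without the length and GC correction, and the lists are not matched for transcript length.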

How the data were processed

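RNA of 3 control and 3 APAP+IBU pools of 13.5 dpc ovaries was sequenced from stranded polyadenylated libraries. The authors mapped the reads to mm10 (TopHat2 2.0.14 with Bowtie2 2.1.0), counted them per gene of Ensembl release 86 with HTSeq 0.6.1, and deposited raw counts. The strand setting is not given in the sources used here. Groups follow the exposure label, although the titles of exposed samples name IBU only. Of 48709 IDs, 48349 matched GENCODE M21 (GRCm38), which gave names, positions, lengths and GC content. Promoter windows and sequences are from RefSeq (GRCm38.p6).

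Counts were tested with edgeR 4.0.16 (R 4.3.3): TMM normalisation, filterByExpr, the quasi-likelihood test and Benjamini-Hochberg adjustment over all tested genes. DESeq2 1.42.0 was an alternative. The length and GC correction was a loess fit (span 0.3) in each library, with the representative transcript (APPRIS principal) or its coding length. Log2 CPM used a prior count of 1. The fits were tested on simulated data. Pools of 1 group differed by more than counting noise (chi-square per degree of freedom 19.1 to 159), so none was a duplicate. Same-numbered pools hold different embryos.

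The members and gene lists were chosen with earlier results of these data known, as was the fit to replicates 1 and 2. Named genes are called members, the 6 Mrpl and 4 Mrps with the largest changes, the highest and lowest of each subunit per kilobase, members of known role, and the 2 largest changes each way of the other lists.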

Additional observations from a re-analysis of the deposited data

How the results depend on the processing

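No mitoribosomal gene was called under any other scaling (DESeq2 size factors, total counts, upper quartile), filter, DESeq2's test, the replicate block or a correction of all 6 libraries. Leaving out 1 library gave 0 to 2 called members, the 2 without control replicate 3, and 0 to 1064 called genes in the whole table, the 1064 again without control replicate 3. Replicates 1 and 2 only gave 51 members and 5607 genes, 24 and 2450 with the length and GC correction, and 11 and 2379 with coding length in it. The whole table had 120 called genes without a low-count filter and 192 with DESeq2. The deviations of libraries with the same number correlated at -0.07, -0.02 and -0.04 over all tested genes and at -0.80, 0.01 and -0.69 over the members. The paper describes independent experiments with both conditions in each, but which pools share an experiment is not given. The main fit therefore did not pair the libraries, although liver markers were highest in replicate 3 of both groups. The replicate block lowered the SE of Alb from 1.53 to 0.29 and raised that of Mrpl12 from 0.28 to 0.33. With the replicate block 2 genes were called, 25 with the block and the correction, and 0 members in both, with medians of -0.22 (Mrpl) and -0.25 (Mrps) under the block. Members under 0 numbered 63 (without control replicate 1) to 76 over the left-out libraries, with medians from -0.36 to -0.12 for Mrpl and from -0.41 to -0.10 for Mrps, and 72 with total counts. The fits with coding length, with exon union length (66 members under 0), with upper quartile scaling and without overlapping genes were chosen after seeing the data.

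Some named genes changed sign, and the cause was not tested. After the correction Mrpl23 was at 0.017, Mrpl38 at 0.0019, Mrpl44 at 0.085 and Mrps18a at 0.027, and with the block added these were 0.013, 0.0025, 0.087 and 0.027. With coding length Mrpl23 was at 0.016, Mrpl44 at 0.045 and Mrps18a at 0.00024, and with exon union length Mrpl44 was at 0.11. Over the left-out libraries Mrpl44 ran from -0.16 to 0.028, Mrps5 from -0.14 to 0.035 and Mrps12 from -0.72 to 0.015, each highest without control replicate 1. In the corrected replicates 1 and 2, Mrpl44 was at 0.070 and Mrps18a at 0.025 with transcript length, and Mrpl23 at 0.012 with coding length. The median deviation of the members varied between libraries of 1 group by an SD of 0.20 (Mrpl) and 0.24 (Mrps), close in size to the median changes, and 3 pools per group limit what can be shown.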

Other observations

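The RNAs that the mitoribosome reads or contains gave a mixed picture. Of 13 mitochondrial mRNAs 6 were under 0 over all 6 libraries, with a median log2 fold change of 0.006 and none called. At a limit set after their values were seen, 5 had mean levels under 10 CPM: mt-Co2, mt-Atp6, mt-Co3, mt-Nd3 and mt-Nd4l. Of these, 4 were under 0, and they ran from 0.30 to 4.6 CPM, beside 51.5 to 6840 CPM for the other 8. Whether such low counts give the RNA levels was not tested, and the median of 0.006 is the value of mt-Nd4l. Of the other 8, 6 were above 0 with a median of 0.32, or 0.11 after the transcript length correction. mt-Atp8, which encodes a subunit of ATP synthase, had 160, 150 and 298 CPM in controls and 488, 467 and 361 CPM in APAP+IBU ovaries, without overlap between the groups. Its log2 fold change was 1.12 ± 0.28 (SE, adjusted p = 0.381 in edgeR's test), 0.62 after the coding length correction, and in replicates 1 and 2 it was called at 1.65 ± 0.09 (adjusted p = 0.00623). Its reading frame overlaps that of mt-Atp6, so reads at the overlap are uncertain. mt-Atp6 had only 2.73, 2.22 and 1.47 CPM in controls and 1.74, 1.51 and 1.35 CPM after exposure. Its log2 fold change was -0.48 ± 0.31 (SE, adjusted p = 0.698 in edgeR's test). Why the counts of these neighbours differ so much was not tested, and the level of mt-Atp8 is uncertain for that reason. mt-Nd5 and mt-Nd2, subunits of complex I, followed at 0.54 ± 0.30 and 0.51 ± 0.24 (SE, adjusted p = 0.692 each). mt-Nd6, the complex I gene on the other strand of mitochondrial DNA, was lowest at -0.65 ± 0.46 (SE, adjusted p = 0.70), with 208 CPM in control replicate 1 and 51.5 to 79.9 CPM in the other libraries.

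The mitochondrial rRNAs were also counted in these libraries of polyadenylated RNA. The log2 fold change was 0.05 ± 0.15 for mt-Rnr1 of the small subunit (SE, adjusted p = 0.907 by edgeR). It was 0.27 ± 0.15 for mt-Rnr2 of the large subunit (SE, adjusted p = 0.692 by edgeR). After the transcript length correction these were -0.31 and -0.20. Mrpl48-ps, a pseudogene of Mrpl48, held 176 to 287 counts per library, and the 3 pseudogenes of Mrps36 held at most 15.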
